A study of Mus musculus with 9 samples.

Results

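The Gnas locus is an imprinted domain of mouse chromosome 2, taken here as the 75 kb window chr2:174100000-174175000 of the mm9 build. Its members are the CpG positions of that window read at least 10 times in every group's table of reduced representation bisulfite sequencing (RRBS), a choice that uses the place and the read depth of a position and not its methylation. There were 402 such positions, on 319 CpGs, of 528 window positions in any table and of 1263118 nuclear positions that met the same condition in all. All cells were Dnmt TKO mouse embryonic stem cells of the J1 line, at passages 7 to 10. Dnmt TKO cells lack the DNA methyltransferases Dnmt1, Dnmt3a and Dnmt3b, so each group carries those deletions, the controls included. TKO was 1 sample without a construct. WT, WWD and R were 2 samples each with a construct of Dnmt3a2, the short isoform of the de novo methyltransferase Dnmt3a, in its wild-type form (WT) or in the mutant forms so labelled. C was 2 samples for which no construct is recorded. The series' title speaks of engineering a domain of Dnmt3a that recognises histones. The labels name 1 table for both samples of a group, and each is referred to below as that group's pool. No spread between samples can be given, and each test below compares the reads of 2 pools, not the conditions. How the constructs were delivered, what drives them and whether a line is 1 clone is not stated in the labels.

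The Gnas locus makes several transcripts from alternative first exons that are spliced onto shared downstream exons. Nesp, the first promoter, encodes the secretory protein NESP55 and is active on the maternal allele. Gnasxl encodes XLαs, a long form of the G protein subunit, and Nespas runs antisense through Nesp; both are active on the paternal allele, as is exon 1A. The promoter of Gnas exon 1 gives Gsα, which couples hormone receptors to adenylyl cyclase. In tissues of the animal the Nespas and Gnasxl region and exon 1A are methylated on the maternal allele from the egg onward, Nesp gains methylation on the paternal allele after fertilisation, and the CpG island of Gnas exon 1 is unmethylated on both. RRBS reads CpGs next to CCGG, the site cut by MspI, and does not tell the alleles apart here.

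The promoters of Nesp and Gnas exon 1 are shown because they carry the contrast within the locus: methylated reads were found over the first in the pools with a construct and hardly any over the second. The sequences are the 250 bases before the start of 2 Gnas entries of RefSeq, 5′ to 3′ on the forward strand, in the GRCm38.p6 build. Capitals mark the CpGs read in at least 1 pool.
Nesp, chr2:174284070-174284319: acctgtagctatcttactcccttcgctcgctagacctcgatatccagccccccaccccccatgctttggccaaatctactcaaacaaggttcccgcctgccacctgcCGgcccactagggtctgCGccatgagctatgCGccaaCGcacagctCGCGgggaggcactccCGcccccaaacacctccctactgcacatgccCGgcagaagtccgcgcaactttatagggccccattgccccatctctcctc
Gnas exon 1, chr2:174329756-174330005: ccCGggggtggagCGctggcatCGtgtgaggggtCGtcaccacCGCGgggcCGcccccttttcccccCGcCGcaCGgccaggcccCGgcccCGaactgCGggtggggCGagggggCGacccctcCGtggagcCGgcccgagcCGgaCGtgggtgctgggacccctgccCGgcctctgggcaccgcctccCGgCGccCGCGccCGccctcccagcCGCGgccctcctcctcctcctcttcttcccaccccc
The table of promoters names all 4 entries of the locus Gnas, and the first exons are named here from the textbook order along the gene. The Nesp sequence has 14 CpGs, 2 CCGG and 61.6% G and C. The Gnas exon 1 sequence has 29 CpGs, 6 CCGG and 80% G and C. CCGG, which reads the same on both strands, occurs in 47.1% of the 32851 entries over the same 250 bases. The median entry has 6 CpGs, 70.6% of entries have fewer than Nesp and 93.2% fewer than Gnas exon 1. No annotation of mm9 was used. The entries were laid on the window by the spacing of their CpGs, so that every covered position inside an entry fell on one of its CpGs. The Gnas exon 1 entry fitted at chr2:174155257-174155556 of mm9 with 31 covered CpGs of the WT table, and the best entry of another gene matched 8. The Nesp entry fitted at chr2:174109571-174109870 with 8 covered CpGs, which in the WT table alone tied with an entry of Ipo9. With the positions of all 5 tables, an alternative chosen after that tie was seen, entries of other genes matched at most 6. The 2 starts so placed, at 174109821 and 174155507, lie 45686 bases apart, the same as in GRCm38.p6. The other 2 entries, for exon 1A, start 2257 and 2238 bases before the Gnas exon 1 start in GRCm38.p6. They hold no CCGG in their 250 bases, did not meet the rule of placement, and were given no place in mm9.

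The covered positions of the locus lay in 3 dense runs, split at gaps over 2 kb, and in 5 isolated sites. The Nesp run (chr2:174109048-174113317) held 77 positions and spans the Nesp start. The middle run (chr2:174121730-174126108) held 124 positions from 11.9 to 16.3 kb past the Nesp start, between the Nesp and Gnas starts, where the order of the locus puts the promoters of Nespas and Gnasxl. The third run (chr2:174152457-174156324) held 182 positions. Of these, 41 lay before base 174155001, on the side of exon 1A, and 141 after it, on the side of Gnas exon 1. The isolated sites held 19 positions.

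Methylation of the locus was low in all 5 pools. The mean over its 402 positions was 2.72% ± 6.36 (SD over positions, as are those that follow) in WT, 1.86% ± 5.58 in WWD and 3.07% ± 7.11 in R, against 0.236% ± 1.26 in TKO and 0.328% ± 1.04 in C. TKO and C were the lowest and R and WT the highest. Over the 1238963 autosomal positions of the same coverage the means were 14.8%, 6.25%, 15.5%, 0.505% and 0.332% in the same order, so in WT, WWD and R the locus mean lay below that of the autosomes. In WT, 219 of the 402 positions had no methylated read and 11 were over 20%. Depth differed between the pools. They held from 133814232 (TKO) to 210550841 (R) read calls at CpG positions, and at the locus the median coverage was 125 reads in WT, 103.5 in WWD and 131.5 in R, against 100 in TKO and 93.5 in C. Positions with at least 0.5 times the WT coverage in TKO are called full depth. There were 295 of them, with medians from 119 reads (C) to 172 (R). The other 107 had a median coverage of 14 in TKO and 20 in WWD, and of 47, 81 and 96 in C, R and WT, so the positions thin in TKO were thin in WWD too. At full depth the locus means were 2.64% in WT, 1.13% in WWD and 2.92% in R, against 0.146% in TKO and 0.248% in C. At reduced depth they were 2.93%, 3.86%, 3.47%, 0.482% and 0.549% in the same order. WWD therefore lay below WT at the full-depth positions and above it at the reduced-depth ones. What part depth has in this was not tested.

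**Figure D1:**
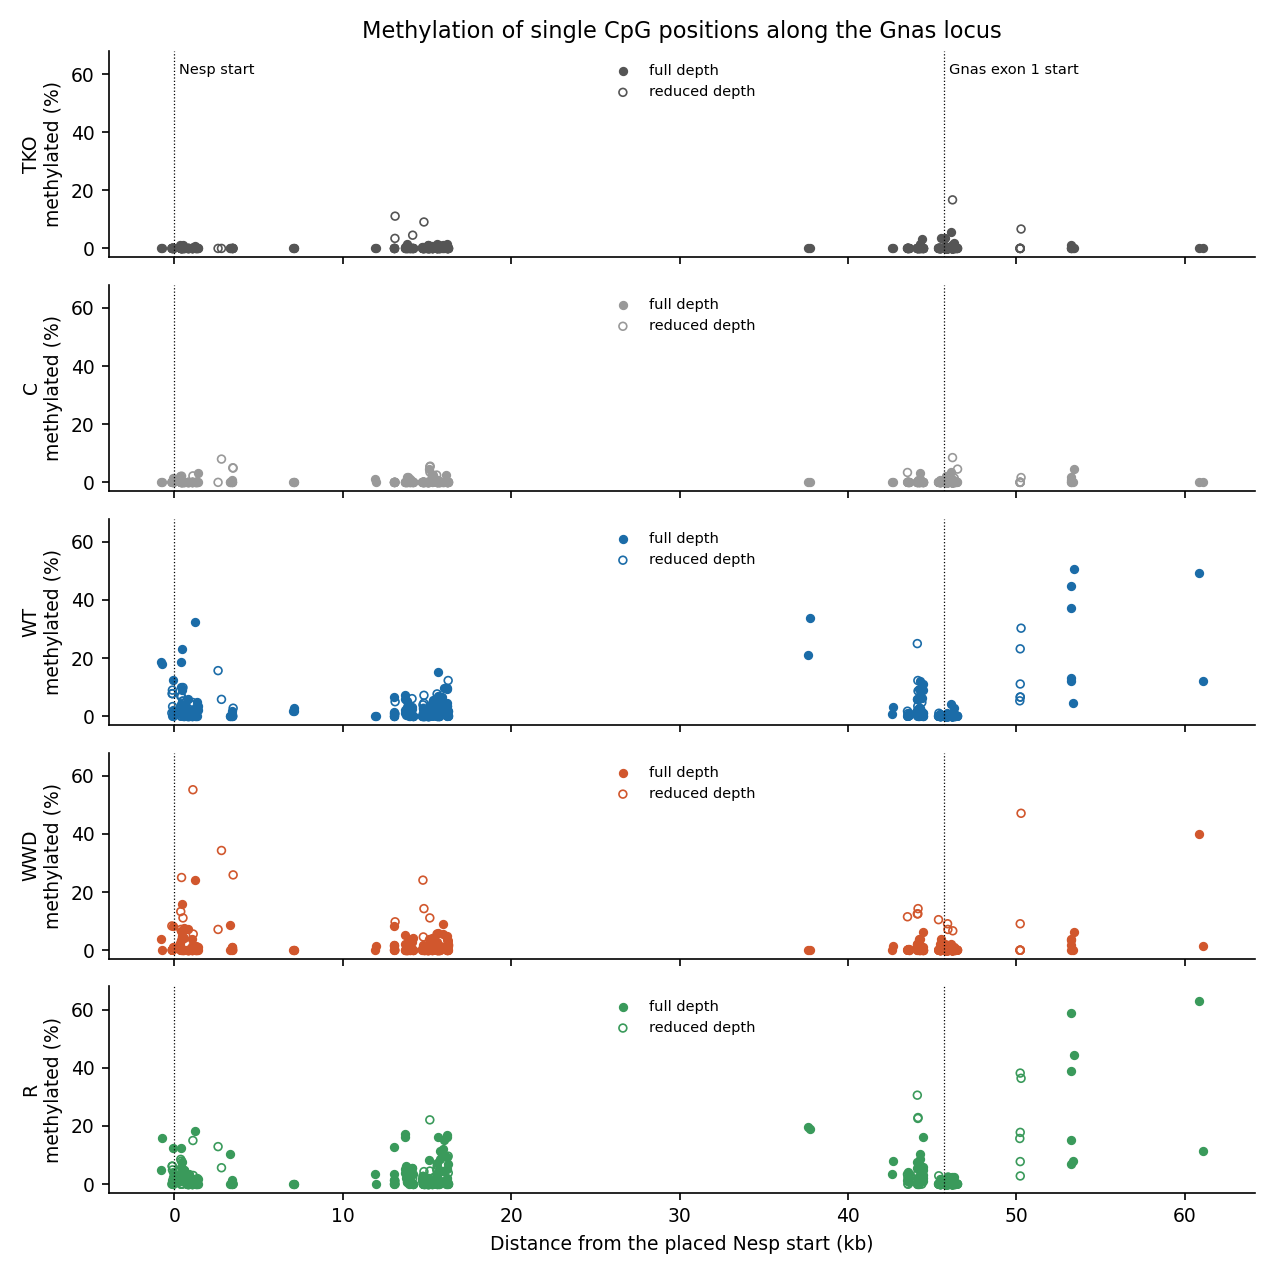
Percent of methylated reads at each of the 402 positions (vertical axes, 1 panel per pool) against the distance from the placed Nesp start in kb. Filled points are full-depth positions, open points those of reduced depth, and dotted lines mark the placed Nesp and Gnas exon 1 starts. The highest points in WT and R lie at isolated sites, and several of the highest in WWD are open points near Nesp.

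At Nesp, the promoter of the maternally expressed transcript, 10 positions on 8 CpGs were read in all 5 pools within the 250 bases shown, between and including the 2 CCGG sites. Their mean was 4.51% ± 4.40 in WT, 1.91% ± 3.41 in WWD and 3.72% ± 3.92 in R, against 0% in TKO and 0.133% in C. Over the 4 of full depth it was 4.02% in WT, 2.70% in WWD and 4.70% in R, against 0% in TKO and 0.333% in C. There R lay above WT, and WWD below both. In WT 8 of the 10 had a methylated read and in TKO none had. The position with the highest WT value was the reverse-strand base of the CpG 95 bases before the start, with 12.5% of 144 reads in WT, 8.33% of 168 in WWD and 12.4% of 177 in R, against 0% of 177 in TKO and 0% of 123 in C. The 3 pools with a construct were above TKO and C there. On the forward strand the CpGs 126, 112 and 106 bases before the start were at 7.78%, 8.99% and 7.78% in WT (90, 89 and 90 reads) and at 6.17%, 6.17% and 4.88% in R. In WWD they had 0 methylated of 14, 13 and 14 reads, too few to tell 0 from the WT level.

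Along the whole Nesp run the full-depth mean over 54 positions was 3.76% ± 6.69 in WT, 2.32% ± 4.39 in WWD and 2.69% ± 4.14 in R, against 0.0617% in TKO and 0.137% in C. The highest position of the run in WT was base 174111063 on the reverse strand, with 0% of 134 reads in TKO, 32.3% of 130 reads in WT (95% Wilson interval 24.9 to 40.8), 24.1% of 174 in WWD and 18.3% of 191 in R. Such intervals cover counting error only, since copies made by PCR were not marked. By 1 kb tile, the unit of the comparisons below, WT was at 6.81% over 12 positions in chr2:174109001-174110000, which holds the promoter, at 3.24% over 46 positions in the next tile (174110001), at 5.36% over 9 in tile 174111001 and at 0.693% over 8 in tile 174113001. The same tiles were at 1.92%, 4.08%, 3.08% and 4.75% in WWD and at 4.84%, 2.47%, 2.76% and 1.53% in R. Tile 174112001 held 2 positions read in all 5 pools, with means of 10.8% in WT, 20.7% in WWD and 9.29% in R. Where WWD was above WT, the full-depth positions gave another picture in 1 tile and the same in another. In tile 174110001 WWD was at 2.14% and WT at 3.02% over 33 of them, and in tile 174113001 WWD was at 2.01% and WT at 0.461% over 6. In the latter, base 174113140 was at 8.82% of 34 reads in WWD and 0% of 16 in WT, and no other full-depth position passed 1.20% in WWD. Over all its positions that tile had an adjusted p of 0.0715 between WWD and WT (Fisher's exact test). Over the 23 reduced-depth positions of the run WWD was at 8.39% ± 14.1 and WT at 4.48% ± 3.96. Base 174110928 was the highest position of the locus in WWD, with 0 of 11 reads methylated in TKO, 2.22% of 45 in C, 4.72% of 127 in WT, 55.2% of 29 in WWD (interval 37.5 to 71.6) and 15% of 100 in R. Base 174113317, also among the 5 highest in WWD and of reduced depth, was at 25.9% of 27 reads in WWD. It was at 0% of 16 in TKO, 4.92% of 61 in C, 2.78% of 108 in WT and 0% of 113 in R.

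In the middle run, between Nesp and Gnas exon 1, the full-depth mean over 94 positions was 1.99% ± 2.78 in WT, 1.08% ± 1.82 in WWD and 3.22% ± 4.56 in R, against 0.143% in TKO and 0.351% in C. R was the highest pool here, and 33 of the 94 positions in R had no methylated read. The highest position in WT was base 174125478, with 15.2% of 164 reads in WT (interval 10.5 to 21.5), 5.95% of 168 in WWD, 16.1% of 186 in R and 0% in TKO. Base 174126021 had 9.49% of 158 reads in WT, 0% of 131 in WWD and 16.8% of 101 in R. The tile with the most positions, 174125001 with 44, was at 2.74% in WT, 1.15% in WWD and 3.39% in R, against 0.137% in TKO and 0.676% in C. The other tiles with at least 5 positions start at 174122001, 174123001, 174124001 and 174126001. They were at 1.83%, 2.21%, 0.898% and 3.48% in WT, at 2.88%, 0.985%, 1.92% and 1.32% in WWD, and at 2.54%, 3.73%, 1.63% and 5.34% in R. In TKO they were at 1.82%, 0.268%, 0.363% and 0.154%, so tile 174122001 was about as high in TKO as in WT. At full depth that tile was at 1.60% in WT, 2.66% in WWD, 3.84% in R and 0% in TKO over 5 positions. Tile 174124001 was at 0.420% in WT, 0.584% in WWD, 0.892% in R and 0.153% in TKO over its 26 full-depth positions. The run's first tile, 174121001, held 2 positions at 0% in WT.

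On the exon 1A side of the third run, upstream of Gnas exon 1, the full-depth mean over 27 positions was 3.34% ± 3.66 in WT, 1.15% ± 1.63 in WWD and 4.12% ± 3.71 in R, against 0.171% in TKO and 0.194% in C. Over all 41 positions it was 3.62% in WT, 1.99% in WWD and 4.99% in R. Here the highest position in WT was base 174153935, with 25% of 116 reads in WT (interval 18.0 to 33.6), 12.5% of 24 in WWD, 30.6% of 108 in R and 0% in TKO. Among full-depth positions it was base 174154092, at 12% of 150 reads in WT, 3.97% of 126 in WWD, 8.72% of 195 in R and 1.48% in TKO. Base 174154253 was at 11.0% of 100 reads in WT, 0% of 90 in WWD and 16.3% of 104 in R. The tiles 174153001 (20 positions) and 174154001 (19) were at 3.51% and 3.91% in WT, at 2.90% and 1.17% in WWD and at 5.66% and 4.20% in R. Over their full-depth positions (9 and 16) they were at 2.02% and 4.25% in WT, 0.799% and 1.39% in WWD and 2.83% and 4.64% in R. Tile 174152001, with 2 positions, was at 2.00% in WT.

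On the side of Gnas exon 1, no pool with a construct had a full-depth mean above that of TKO. Over its 107 full-depth positions the mean was 0.123% ± 0.516 in WT, 0.181% ± 0.561 in WWD and 0.167% ± 0.505 in R, against 0.193% ± 0.758 in TKO and 0.190% ± 0.496 in C. Over all 141 positions the means were 0.101% in WT, 0.374% in WWD and 0.164% in R, beside 0.265% in TKO. In WT, 129 of these positions had no methylated read, 16 of 15937 read calls were methylated and the highest position was at 4.26%. In the 250 bases shown, 14 positions on 11 CpGs were read in all 5 pools and 38 positions on 27 CpGs in at least 1. The 14 lay on CpGs 248 to 165 bases before the start, so the bases nearer to it are not compared across the 5 pools. They had means of 0.100% in WT, 0.266% in WWD and 0.0569% in R, against 0.254% in TKO and 0.105% in C. The 2 of them with any methylated read in WT were at 0.709% and 0.694%. Of the positions not read in all 5 pools, WT had 5.56% of 36 reads at the CpG 118 bases before the start (reverse strand). It had 3.85% of 26 at the CpG 54 bases before (forward strand) and 0% at the others it covered. The tile at the start, chr2:174155001-174156000, held 102 positions, at 0.101% in WT, 0.422% in WWD and 0.158% in R, against 0.158% in TKO and 0.179% in C. In WWD it was at 0.192% over the 85 full-depth positions. The next tile (174156001, 39 positions) was at 0.544% in TKO, 0.102% in WT, 0.249% in WWD and 0.180% in R.

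**Figure D2:**
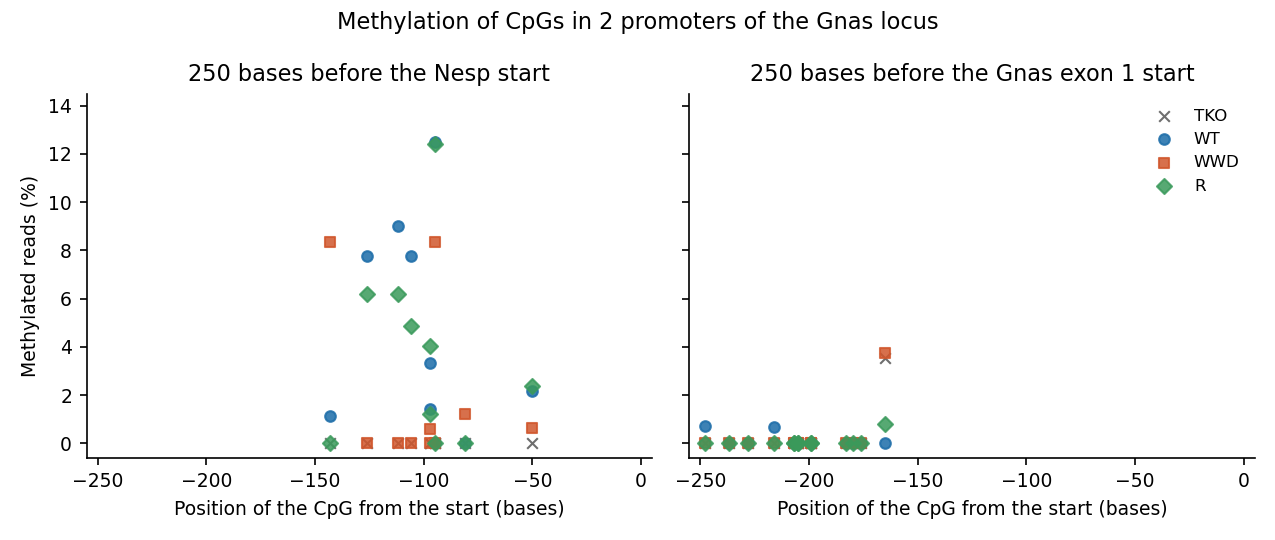
Percent of methylated reads (vertical axis) at each position read in all 5 pools, against its distance from the start in bases, in the 250 bases before the Nesp start (left) and the Gnas exon 1 start (right), for TKO, WT, WWD and R. Nesp has WT and R points up to 12.5% and 12.4%, while before Gnas exon 1 no point passes 3.73%, the WWD value at a CpG where TKO was at 3.55%. The Gnas exon 1 points lie on CpGs 248 to 165 bases before the start only.

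The isolated sites carried the highest methylation of the locus. Their 13 full-depth positions had means of 22.0% ± 18.7 in WT, 4.36% ± 10.8 in WWD and 21.9% ± 22.1 in R, against 0.0905% in TKO and 0.560% in C. Of the 5 highest positions of the locus in WT, all 5 lay there. Of the sites, 2 lie before the Gnas exon 1 start, and the nearer of them (tile 174147001) had 2 positions, both at 0% in WWD. One of them, base 174147578, was at 33.9% of 280 reads in WT (interval 28.6 to 39.7), 0% of 176 in WWD and 18.9% of 281 in R, against 0% of 251 in TKO and 0% of 211 in C. The 0 in WWD allows up to 1.70%, the share that 3 reads would give. The other of these sites, 38636 bases before the start (tile 174116001), was at 2.29% in WT and at 0% in the other 4 pools over 3 positions.

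Past the Gnas exon 1 start, the site 4512 bases on (tile 174160001) held 6 reduced-depth positions at 13.9% in WT, 9.36% in WWD and 19.8% in R, against 1.11% in TKO and 0.273% in C. Its base 174160094 was at 6.67% of 30 reads in TKO, 30.3% of 119 in WT, 47.1% of 51 in WWD and 36.4% of 140 in R. Its base 174160043 was at 0% of 19 reads in TKO, 23.2% of 112 in WT, 9.09% of 22 in WWD and 38.2% of 131 in R. The site 7538 bases on (tile 174163001) held 6 full-depth positions at 27.1% in WT, 2.56% in WWD and 28.6% in R, against 0.196% in TKO and 1.21% in C. The highest position of the locus in WT, base 174163212, lay there, with 50.7% of 227 reads in WT (interval 44.2 to 57.1), 6.36% of 220 in WWD (3.83 to 10.4) and 44.5% of 191 in R, against 0% of 209 in TKO and 4.69% of 192 in C. The intervals of WT and WWD do not overlap, and those of WT and R do. The site 15178 bases on (tile 174170001) held 2 positions, with means of 30.7% ± 26.1 in WT, 20.7% ± 27.1 in WWD and 37.1% ± 36.5 in R. Its base 174170685 was at 49.2% of 120 reads in WT, 39.8% of 103 in WWD (30.9 to 49.5) and 63.0% of 162 in R. That base was at 0% of 106 reads in TKO and 0% of 104 in C. The other position of the site was lower than it in WT, WWD and R. In WWD base 174170685 was the highest full-depth position of the locus. Whether these sites lie in exons or introns was not determined in mm9.

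**Figure D3:**
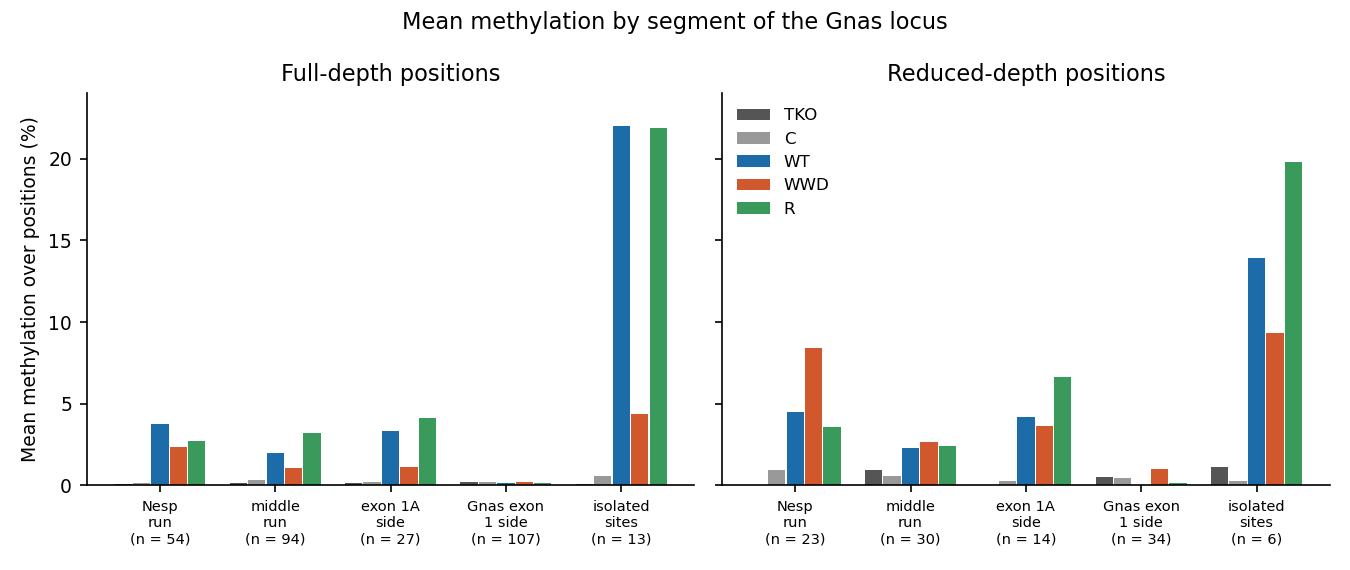
Mean percent of methylated reads over the positions of each segment of the locus (vertical axis, bars from 0, 1 bar per pool), for full-depth positions (left) and reduced-depth positions (right), with the number of positions under each segment. At the isolated sites WT and R stand at 22.0% and 21.9% and WWD at 4.36% at full depth, and on the Gnas exon 1 side no full-depth bar passes 0.193%.

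The tiles of the locus were set beside autosomal tiles outside the window with a number of WT rows within 20% of their own, because tiles dense in covered CpGs are less methylated in these pools. Of the 15 tiles with at least 5 positions, 9 were below the median of their like tiles in WT, 8 in WWD and 9 in R. In the Nesp run, in the middle run and on the exon 1A side, the tile with the most WT rows stood high among its like tiles. Tile 174110001 at Nesp was at 3.24% in WT where 4055 like tiles had a median of 0.287% (quartiles 0.158 and 0.746), above 93.1% of them. Tile 174125001 in the middle run was at 2.74% against a median of 0.251% over 3450 tiles, above 95.2%, and tile 174154001 on the exon 1A side at 3.91% against 0.461%, above 83.2%. In WWD these 3 tiles were above 97.1%, 86.5% and 65.5% of their like tiles, and in R above 88.8%, 95.3% and 82.3%. The tile at the Gnas exon 1 start, which has the most rows, stood low in WT, at 0.101% against a median of 0.182% over 985 tiles and above 10.3% of them. In R it was above 28.7% of its like tiles. In WWD it was at 0.422%, above 75% of them, and above 58.7% at full depth. The tiles of the Nesp and middle runs with at most 16 WT rows were below the median of their like tiles in WT as well. In the Nesp run, tile 174109001, with the promoter, was in the middle range, at 6.81% in WT against a median of 11.3% (quartiles 1.04 and 31.2, above 43.5%). Tile 174111001 was at 5.36% against 28.6% (above 17%) and tile 174113001 at 0.693% against 30.9%. In the middle run, tile 174122001 was at 1.83% against 30.9% and tile 174126001 at 3.48% against 15.1% (above 32.4%). Among isolated sites, tile 174163001 was at 27.1% in WT, above 39.2% of like tiles, and at 2.56% in WWD, above 17.8%. A count of rows does not take account of how near a tile is to a dense one. These ranks describe the tiles and are not a test.

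**Figure D4:**
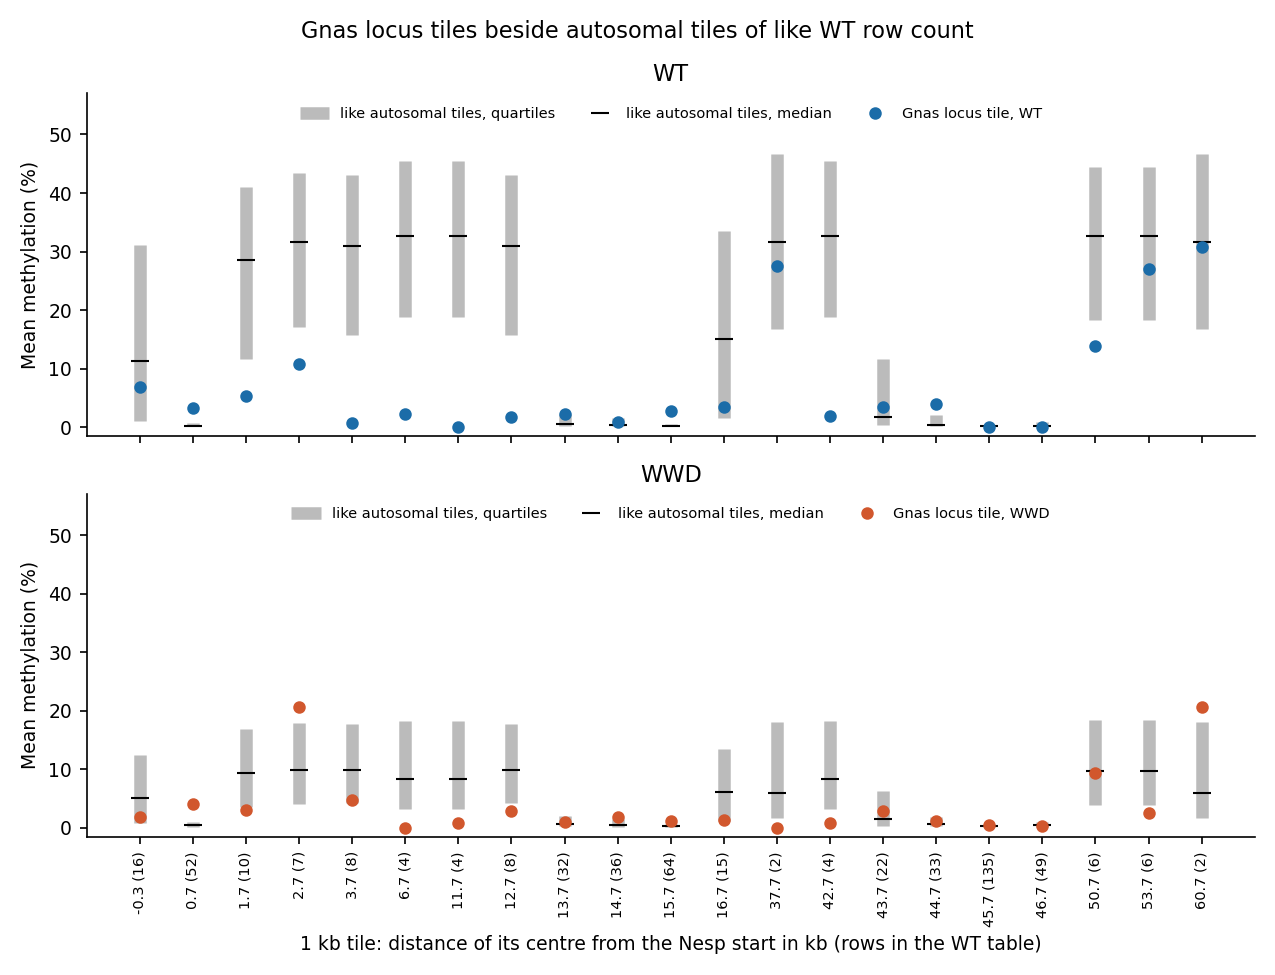
Mean methylation in percent (vertical axes) of the 21 tiles of the locus in WT (top) and WWD (bottom), points, beside the quartiles (grey bars) and median (black lines) of autosomal tiles of like WT row count, ordered along the locus. Several tiles of 4 to 10 rows lie below the grey bars in WT, and 3 tiles of 33 to 64 rows lie above theirs.

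Position by position, WT was compared with TKO by two-sided Fisher's exact tests on methylated and unmethylated reads, adjusted by Benjamini and Hochberg over all nuclear positions. Calls of positions needed an adjusted p under 0.01 with 25 points or more between the pools, and calls of a tile of at least 5 positions the same p and at least 10 points. Of 408 locus positions tested, 6 were higher in WT and 0 lower, or few beside the 22.5% of all positions that were called higher in WT. They were the 5 highest at the isolated sites, with adjusted p from 7.67e-40 to 1.17e-19 by Fisher's exact test, and base 174111063 in the Nesp run (adjusted p = 1.88e-14, Fisher's exact test). Of 15 tiles, 3 were called higher, beside 56% of all tiles. These were 174109001 with the Nesp promoter, at 10.8% in WT and 0% in TKO over the 16 positions of both pools (adjusted p = 1.99e-31, Fisher's exact test), 174160001 (3.27e-06) and 174163001 (2.14e-95). Over the 12 positions read in all 5 pools, tile 174109001 was at 6.81% in WT and 0% in TKO, under the 10 points needed. It was also not called when the difference was taken from summed reads. A read counts once for each CpG it covers, so tile p-values are too small. With counts divided by the number of positions, only 174163001 of the 3 was called (adjusted p = 2.01e-16, exact test), and 174109001 and 174160001 were at 0.0239 and 0.119. Without a minimum difference, 12 of the 15 tiles were higher in WT at an adjusted p under 0.01 by the exact test on summed reads, a share near that of all tiles (73.4%), and 1 of the 15 was with divided counts. Both tiles of the Gnas exon 1 side were among the other 3, with WT minus TKO differences of -0.06 and -0.42 points and adjusted p of 0.6 and 0.441 (Fisher's exact test). Among the 12, tile 174122001 was at 1.83% in WT and 1.82% in TKO, with an adjusted p of 8.34e-03 (Fisher's exact test). The direction was taken from the means over positions and the p from summed reads, so that tile had hardly any difference in mean.

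R against TKO gave 6 positions higher of 408, beside 23.2% of all positions, and 2 tiles higher of 15, beside 57.5% of all tiles. The tiles were 174160001 and 174163001, and with divided counts 1 tile was called. WWD against TKO gave 3 positions higher of 402, beside 5.21%, and 0 tiles of 15, beside 33.4% of all tiles. Without a minimum difference, 12 of the 15 tiles were higher in R at an adjusted p under 0.01 by the exact test on summed reads. The count in WWD was 12 of the 15 too, the same as in WT. Among all tiles the shares were 75.3% for R and 67.4% for WWD. With divided counts 1 of the 15 was higher at that cut in R and 0 in WWD. At an unadjusted p under 0.05 by the same exact test 13 of the 15 tiles were higher in WWD, as were 72.4% of all tiles, and 2 of the 15 with divided counts, where the lowest adjusted p was 0.0657. Of the 3 WWD positions, 174110928 and 174160094 were of reduced depth and 174170685 of full depth, so 1 remained when full-depth positions alone were counted. C against TKO gave 0 positions and 0 tiles higher, where 0% of all positions and 0.0049% of all tiles were called, and 3 positions of the locus had an unadjusted p under 0.05 by Fisher's exact test, 2 higher and 1 lower in C. The share of all positions at that unadjusted cut was not computed. These 4 comparisons share the TKO pool.

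In the comparison of WWD with WT, 4 of 445 locus positions were lower in WWD, beside 13.4% of all positions, and 5 were higher, beside 0.461%. The 4 lower ones were all of full depth and all at isolated sites. They were 174163212, 174163045 (44.7% of 170 reads in WT and 1.68% of 119 in WWD), 174163051 (37.4% of 171 and 3.88% of 129) and 174147578, with adjusted p from 6.73e-25 to 8.19e-12 by Fisher's exact test. None of the 5 higher ones was of full depth. Of these, 174110928 and 174112624, had 11 reads each in TKO, and 3, 174112189, 174154021 and 174154046, were not listed in TKO, whose table holds positions of at least 10 reads. They lay in the Nesp run and on the exon 1A side. In WWD they had from 12 reads (174112189, 58.3%, with 0% of 21 in WT) to 35 reads (174112624, 34.3%, with 5.81% of 86 in WT), and their adjusted p ran from 1.28e-08 to 8.35e-03 by Fisher's exact test. With at least 30 reads in both pools, 1 of the 5 was called. Of 16 tiles, 1 was lower in WWD, 174163001 (adjusted p = 1.79e-59, and 6.89e-10 with divided counts, Fisher's exact test), beside 48.7% of all tiles, and 0 were higher, beside 0.102%. The WT minus TKO gain at full depth was 2.50 points over the locus and the WWD minus TKO gain 0.984, or 39.4% of it, where the autosomes had 24.8%. Over all positions the shares were 65.3% and 40.3%. By segment at full depth the WWD share was 60.9% in the Nesp run, 50.5% in the middle run, 30.8% on the exon 1A side and 19.5% at the isolated sites. Over all positions of these segments it was 104%, 65.4%, 53.6% and 29.1%. The differences between these shares were not tested.

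Against WT, R had no called position or tile in the locus. Of 509 positions 0 were higher in R, beside 0.234% of all positions, and 0 lower, beside 0.0438%. Of 16 tiles 0 were higher, beside 2.6%, and 0 lower, beside 0.368%. By the same exact test, 31 positions had an unadjusted p under 0.05, 19 higher and 12 lower in R, and 2 had an adjusted p under 0.01, 1 in each direction. The shares of all positions at these cuts were not computed, so the counts cannot be set beside them. The largest tile difference was 5.93 points, in tile 174160001 (19.8% in R and 13.9% in WT, adjusted p = 0.0197, Fisher's exact test). Without a minimum difference, 2 of the 16 tiles were higher in R at an adjusted p under 0.01 by the exact test, beside 10% of all tiles. Tile 174123001 of the middle run was at 5.48% in R and 3.86% in WT (adjusted p = 1.26e-03, Fisher's exact test). On the exon 1A side, tile 174153001, at 5.66% and 3.51%, had an adjusted p of 6.10e-03 by the exact test, which rose to 1 with divided counts. With divided counts 0 of the 16 tiles were higher in R at an adjusted p under 0.01. At full depth the R minus TKO gain was 71% of that of WT in the Nesp run, 166% in the middle run, 125% on the exon 1A side and 99.4% at the isolated sites, and these differences were not tested. The comparisons of WWD and R with WT share the WT pool.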

How the data were processed

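Genomic DNA was cut with MspI, selected by size, treated with bisulfite and sequenced, per the labels' protocols. Bismark, methylKit and the mm9 build are named in the submitters' processing notes. Per the file headers, each deposited table gives the read count (coverage) and the percent of reads with C at each CpG position and strand. Only positions of at least 10 reads are listed. Of 6 tables the 5 tied to groups by the labels were used, and 8 columns of values were not used. The labels name 1 table for both samples of WT, WWD, R and C, and whether it joins their reads was not tested.

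Methylated reads were taken as coverage times percent, rounded. Levels are means over positions read in all 5 tables. Tiles are 1 kb. Tests were two-sided Fisher's exact tests with Benjamini-Hochberg adjustment over all nuclear positions, or over all tiles of at least 5 positions, in Python 3.11.15 with numba 0.67.0 and numpy 2.4.6, checked on simulated reads. Single positions carry 95% Wilson intervals, and a 0 the limit that 3 reads would give. Promoter sequences are those of RefSeq (GRCm38.p6) and served for their letters and CpG spacing. Tiles with at least 5 positions were given with values. The positions named were the 5 highest in WT and in WWD, and those called (up to 5 by size of difference in each comparison, and all where the text counts them). Others were chosen after their values were seen. These were the highest of each segment, those of the Nesp and Gnas exon 1 promoters, and bases 174113140, 174126021, 174154092 and 174154253. The members, lists and tests were chosen with earlier results of these data known. Alternatives tried were coverage minimums, merged strands, pooled reads, depth classes, other thresholds, shifted tiles and divided tile counts.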

Additional observations from a re-analysis of the deposited data

How the results depend on the processing

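No paired analysis was possible because the labels name 1 table for both numbered samples of a group, and for the same reason no sample could be left out. Reads of PCR copies and the few reads at reduced-depth positions limit single values. The locus mean in TKO (0.236%) was 0.169% at a coverage minimum of 30, 0.150% with reads pooled, 0.146% at full depth and 0.157% at full depth by TKO and C. C (0.328%) was 0.266% and 0.261% at minimums of 20 and 30, 0.248% at full depth and 0.255% by TKO and C. WT (2.72%) was 2.91% at a minimum of 30, 3.07% with strands merged, 3.15% with reads pooled and 1.89% in the dense runs alone, and R (3.07%) was 3.47%, 3.52% and 2.17% under the last 3 of these. WWD (1.86%) was 1.27% and 1.30% at minimums of 20 and 30, 1.99% with strands merged, 1.31% with reads pooled, 1.13% at either full depth and 1.65% in the dense runs. The dense runs were set apart after seeing the data. WWD stayed below WT and R in each of these.

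At 10 points, the positions called numbered 18 for WT over TKO, 25 for R over TKO, 5 for WWD over TKO, 6 higher and 11 lower in WWD than in WT, and 1 in each direction for R against WT. At 40 points they were 3 for WT over TKO, 3 for R over TKO, 2 for WWD over TKO, and 2 higher and 2 lower in WWD than in WT. Higher in WWD than in WT were 1 with at least 30 reads in both tables and 0 at full depth, while at full depth WWD over TKO had 1 and R over TKO 4 in place of 6. With at least 30 reads R over TKO had 5 and WWD over TKO 2. With divided counts 1 tile was called for WT and 1 for R over TKO, and with the difference taken from summed reads 1 for WWD over TKO and 2, in place of 3, for WT over TKO. An adjusted p under 0.05 gave 7 positions for WT over TKO in place of 6, and tiles shifted by 500 bp gave 3 tiles for R over TKO in place of 2. The other 11 of the 12 counts under each of these, and all 12 with tiles of at least 3 positions, did not change. Shares of all positions or tiles called under these alternatives were not recorded, so the counts show only how the locus calls move with the setting. Tile levels moved by more than 0.5 of the width of the Wilson interval on their reads in 14 of 42 cases at full depth, 8 of 45 with reads pooled and 17 of 30 with tiles shifted by 500 bp.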

Other observations

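Across the 402 positions of the locus, Pearson's r between the levels in R and WT was 0.88, and 0.90 over the 295 full-depth ones. WWD and WT had 0.45 and 0.60. The points share their fragments and, within a pool, their reads, so these are descriptions. Of the 319 CpGs, 83 were read on both strands in all 5 pools. In WT the strands lay within 5 points of each other at 74 of them, and the largest difference was 23.9 points. The highest position in TKO was base 174156025, 518 bases past the Gnas exon 1 start, with 16.7% of 12 reads, 8.51% of 47 in C and 0% of 105 in WT, 0% of 13 in WWD and 0% of 80 in R. At the next highest in TKO, base 174122932 in the middle run, 11.1% of 27 reads were methylated, with 0% of 64 in C, 5.00% of 120 in WT, 9.76% of 41 in WWD and 0% of 87 in R. Both have wide intervals in TKO, 4.70 to 44.8 and 3.85 to 28.1. These 2 positions were chosen by their TKO values.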
